A study of Mus musculus with 14 samples.

Results

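Messenger RNA of 10 genes of the Notch pathway was measured in mouse embryonic forebrain with and without conditional deletion of Sbno1 and Trp53. The genes were the receptors Notch1, Notch2 and Notch3, the ligands Dll1, Dll3 and Jag1, the target genes Hes1, Hes5 and Hey1, and the ubiquitin ligase gene Dtx4. They were taken by symbol from tables of 56941 gene IDs, and all 10 were found and tested in every comparison. Double conditional knockout libraries (dcKO) carried floxed Sbno1 and floxed Trp53 with the Emx1-Cre driver, and the libraries they were set against (ff) carried the floxed alleles. Day 18.5 of gestation (E18.5) was sampled in cerebral cortex, with 4 dcKO and 4 ff libraries, and E12.5 in telencephalon, with 3 dcKO and 3 ff libraries. Emx1-Cre recombines mainly in dorsal telencephalic progenitors and their descendants, so interneurons that migrate in from ventral telencephalon, blood vessels and microglia keep their floxed alleles. No group had the driver without floxed alleles or only one gene deleted, so the driver, the loss of Sbno1 and the loss of Trp53 cannot be told apart.

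Notch receptors are membrane proteins that are cut when a ligand on a neighbouring cell binds them. The released intracellular part enters the nucleus, joins the DNA-binding protein RBPJ and a Mastermind coactivator, and turns on repressor genes of the Hes and Hey families. In the embryonic cortex this signal keeps radial glia, the stem cells of the ventricular zone, in the progenitor state, and Hes1 and Hes5 repress the proneural genes that start neuronal differentiation. Dll1 is carried mainly by cells that begin to differentiate. Sbno1 is a mouse relative of the fly gene strawberry notch, and Trp53 encodes p53.

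Total expected counts per library were 48.6 to 81.96 M at E18.5 apart from dcKO replicate 1 with 5.98 M, and 42.04 to 67.4 M at E12.5 apart from ff replicate 1 with 4.92 M. Replicate numbers are the order of the table columns. Levels are given in TPM, the length-scaled transcript abundance of RSEM, and scaled counts in CPM, which are not scaled for length. The choroid plexus transcript Ttr had 1.82 TPM in dcKO replicate 3 at E18.5, against 1401 to 3203 TPM across the remaining 7 libraries of that stage. Chromosome Y genes and Xist marked every dcKO library as male, and 2 of 4 ff libraries at E18.5 and 1 of 3 at E12.5 as female. Emx1 was lower in dcKO at both stages, with 15.1 ± 0.88 CPM in dcKO and 26.4 ± 1.26 CPM in ff at E18.5 (SD, n = 4 each, edgeR adjusted p = 8.31e-06) and 31.9 ± 1.47 CPM in dcKO and 62.3 ± 4.42 CPM in ff at E12.5 (SD, n = 3 each, edgeR adjusted p = 0.00833). Sbno1 was at 72.4 ± 4.24 CPM in dcKO and 73.6 ± 1.31 CPM in ff at E18.5 (adjusted p = 0.682), and at 70.2 ± 5.77 CPM in dcKO and 106 ± 9.29 CPM in ff at E12.5 (adjusted p = 0.0505). Trp53 was at 65.0 ± 6.25 CPM in dcKO and 75.0 ± 2.53 CPM in ff at E18.5 (adjusted p = 0.0319), and at 106 ± 2.32 CPM in dcKO and 123 ± 15.4 CPM in ff at E12.5 (adjusted p = 0.218). Counts over a whole gene do not show whether the floxed exons were lost, so at E18.5, where Sbno1 did not differ, dcKO below means the libraries labelled dcKO.

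At E18.5 the receptor genes Notch1, Notch2 and Notch3, the ligand genes Dll1 and Jag1 and the target genes Hes1 and Hes5 were higher in the libraries labelled dcKO than in ff. By edgeR's fold change in counts, Notch1 was 1.85-fold, Hes1 1.70-fold and Notch2 1.57-fold higher. Dtx4 was the member with the largest difference, at 0.449 of its ff value in counts, and Dll3 was also lower. Hey1 did not pass the test. Thus 9 of 10 members were called, 7 higher and 2 lower, by edgeR's quasi-likelihood F test with Benjamini-Hochberg adjustment over all 17974 genes at 0.05, where 32.2% of all genes were called, 15.6% higher and 16.6% lower. Without dcKO replicates 1 (shallow) and 3 (almost no Ttr) 8 were called, all but Dll3 and Hey1, where 26% of all genes were. With 1 library left out in turn the count ran from 7 to 9, where 24.2% to 31.3% of all genes were called. Hes5 lost its call in 7 of those 8 fits. The median log2 fold change was 0.39 over the members and 0.03 over all genes tested. Nothing in the labels says that the libraries of a group came from separate embryos, so p-values measure the spread between these libraries.

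**Figure D1:**
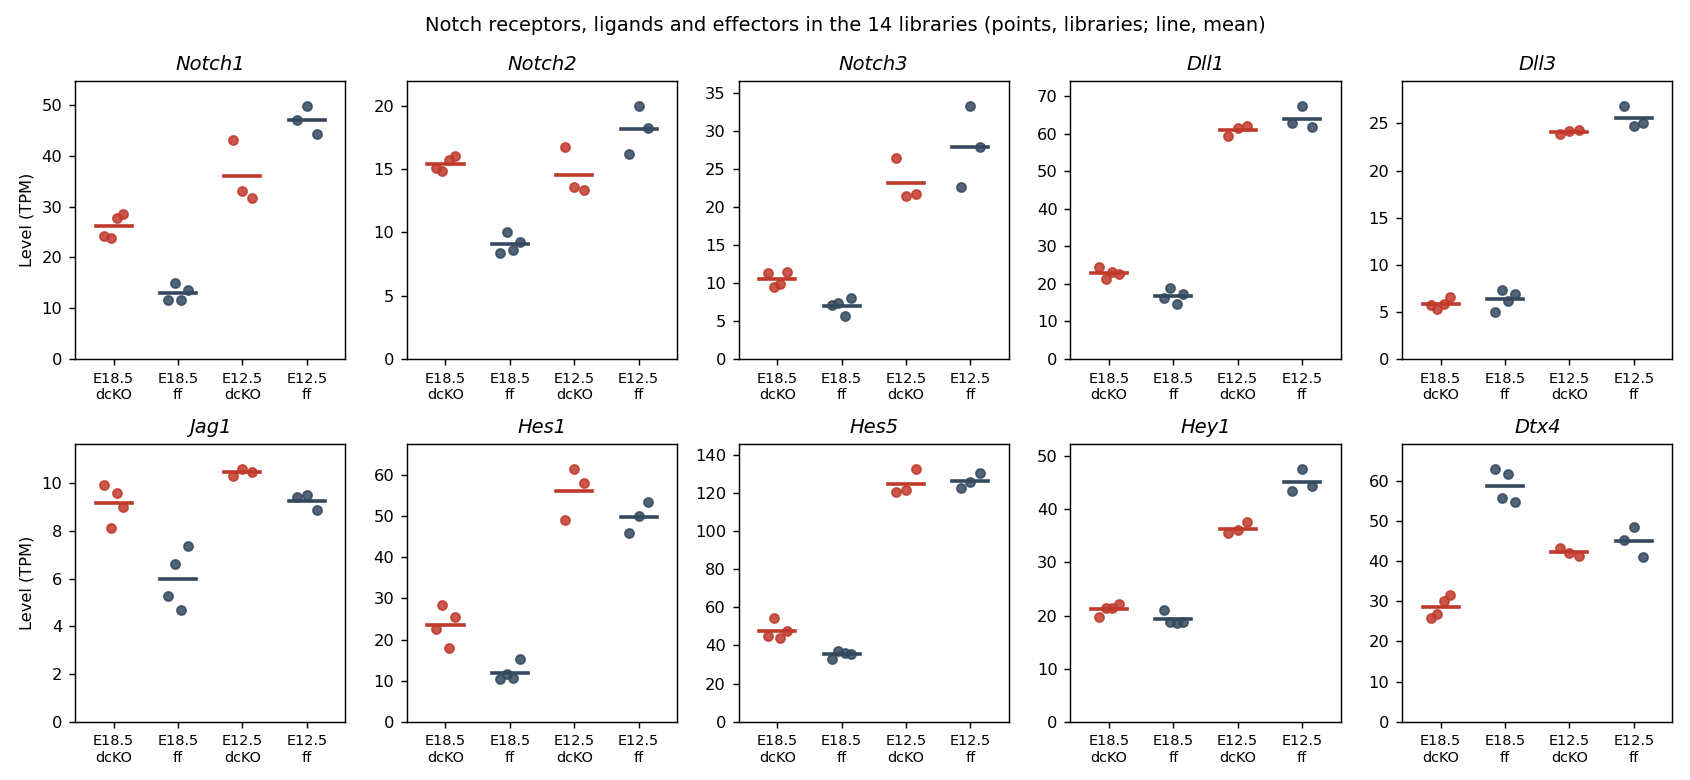
TPM of each member in every library, with dcKO left of ff within each stage and a bar at the group mean. Notch1, Notch2 and Hes1 in E18.5 dcKO lie above all E18.5 ff libraries, and Dtx4 in E18.5 dcKO lies below them, while the E12.5 groups lie close together for most members.

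Notch1 had 24.3, 23.8, 27.7 and 28.6 TPM in the 4 E18.5 dcKO libraries, against 11.7, 14.9, 11.7 and 13.5 TPM in the ff libraries. Every dcKO library was above every ff library, with a gap wider than the range within either group. The log2 fold change in counts was 0.89 (SE 0.07, adjusted p = 3.64e-06). Notch2, which is widely expressed in radial glia and in several non-neural cells, had 15.1, 14.8, 15.7 and 16.03 TPM in dcKO libraries, against 8.40, 10.03, 8.61 and 9.21 TPM in ff libraries. These groups did not overlap either, and the log2 fold change was 0.65 (SE 0.05, adjusted p = 5.2e-06). Notch3 is a receptor of radial glia that is also a known gene of vascular mural cells. It had 11.3, 9.46, 9.93 and 11.5 TPM in dcKO libraries, against 7.04, 7.36, 5.62 and 8.09 TPM in ff libraries. Again no dcKO library reached into the ff range, and the log2 fold change of 0.38 (SE 0.09, adjusted p = 0.00657) was the smallest of the receptors.

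The 250 bases before and 50 bases after the annotated start of Notch1 and Notch2 are shown, since these receptor genes had the lowest p-values among the members that were higher, and that of Hes5 is shown because it was the only member window with the RBPJ word. The windows are from RefSeq on GRCm38.p6. They lie at chr2:26503773-26504072 on the minus strand for Notch1, chr3:98013288-98013587 on the plus strand for Notch2 and chr4:154960673-154960972 on the plus strand for Hes5. Capitals mark the words searched, which were the RBPJ word TGGGAA and its complement TTCCCA, and the N-box CACNAG and its complement CTNGTG, a word that Hes proteins bind.
Notch1: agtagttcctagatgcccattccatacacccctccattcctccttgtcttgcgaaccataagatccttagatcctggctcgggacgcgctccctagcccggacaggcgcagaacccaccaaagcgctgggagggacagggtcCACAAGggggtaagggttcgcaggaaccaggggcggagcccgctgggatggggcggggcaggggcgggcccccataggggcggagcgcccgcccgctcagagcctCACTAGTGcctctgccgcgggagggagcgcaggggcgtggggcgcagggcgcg
Notch2: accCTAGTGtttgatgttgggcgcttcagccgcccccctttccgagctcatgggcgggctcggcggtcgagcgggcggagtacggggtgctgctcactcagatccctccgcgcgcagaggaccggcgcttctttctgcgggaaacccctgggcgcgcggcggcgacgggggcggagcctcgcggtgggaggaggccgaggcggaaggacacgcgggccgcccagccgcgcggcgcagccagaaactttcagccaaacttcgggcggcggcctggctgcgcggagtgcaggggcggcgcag
Hes5: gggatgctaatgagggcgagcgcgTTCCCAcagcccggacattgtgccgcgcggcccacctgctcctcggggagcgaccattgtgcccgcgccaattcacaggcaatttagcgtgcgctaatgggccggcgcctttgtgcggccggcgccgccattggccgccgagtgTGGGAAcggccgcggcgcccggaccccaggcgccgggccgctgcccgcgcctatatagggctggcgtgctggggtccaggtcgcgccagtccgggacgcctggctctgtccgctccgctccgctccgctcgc
Of the 10 members, 7 had a window, with 8 windows in all because Dll1 had a pair of them, and Hes1, Hey1 and Dtx4 had none. The RBPJ word occurred in 1 of the 8 member windows, that of Hes5, where TTCCCA began at position -226 and TGGGAA at position -82 from the start. It occurred in 25.56% of all 32851 windows of this length, and 3.79% of windows held at least 2 copies. The N-box occurred in 4 of the 8 member windows, those of Notch1, Notch2, Notch3 and Dll1, and in 42.48% of all windows. In Notch1 it was found at -108 and as overlapping words at -3 and -1, in Notch2 at -247, in Notch3 at -204 and -159, and in 1 window of Dll1 at 14. For Notch3 and that Dll1 window, bases checked after the start were not found in the gene's GENCODE M21 transcripts. Positions in these windows are therefore less certain. For the other member windows the bases were found. A matching word is a description of the sequence and not a binding site.

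The ligand gene Dll1 had 24.6, 21.4, 23.3 and 22.6 TPM in E18.5 dcKO libraries, against 16.4, 19.0, 14.8 and 17.4 TPM in ff libraries. The groups were apart, and the log2 fold change in counts was 0.41 (SE 0.06, adjusted p = 0.000514). Jag1, a ligand of the Serrate type that is expressed by some progenitors and by vessel cells, had 9.95, 8.11, 9.61 and 9.01 TPM in dcKO libraries, against 5.29, 6.60, 4.67 and 7.36 TPM in ff libraries. It too was higher in every dcKO library, with a log2 fold change of 0.53 (SE 0.11, adjusted p = 0.00363). Dll3 differs from the other ligands in that it sits inside the cell and acts on Notch in the same cell. Its level was 5.74, 5.29, 5.84 and 6.55 TPM in dcKO libraries, against 5.01, 7.33, 6.20 and 6.94 TPM in ff libraries, so the groups overlapped. In scaled counts they did not, with 5.92 to 6.23 CPM in dcKO and 6.39 to 9.08 CPM in ff, and the log2 fold change was -0.38 (SE 0.12, adjusted p = 0.026). On the TPM scale the difference was -0.10 in log2(TPM + 1), with an adjusted p of 0.56 by limma, and with sex as a covariate edgeR gave -0.24 with an adjusted p of 0.189. The call for Dll3 was also lost without ff replicate 2 (adjusted p = 0.0665), dcKO replicate 3 (0.0542) or dcKO replicate 4 (0.063), and without dcKO replicates 1 and 3 together (0.0815).

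Hes1, the target gene whose protein represses proneural genes and the ligand gene Dll1, had 22.5, 28.4, 17.9 and 25.5 TPM in E18.5 dcKO libraries, against 10.3, 11.5, 10.6 and 15.2 TPM in ff libraries. The dcKO libraries were all higher and spread more widely than the ff libraries, and the log2 fold change in counts was 0.77 (SE 0.11, adjusted p = 0.000289). Hes5, the most abundant member in E18.5 dcKO, had 45.0, 54.1, 43.9 and 47.7 TPM in dcKO libraries, against 33.0, 36.9, 36.0 and 35.3 TPM in ff libraries. The groups were apart in TPM and overlapped in scaled counts, and the log2 fold change of 0.26 (SE 0.08, adjusted p = 0.0313) was close to the threshold. Its adjusted p was above 0.05 in 7 of the 8 fits that left out 1 library, where it ran up to 0.12, without a filter on low counts (0.0643), in 1 fit of all 14 libraries (0.0648) and with sex as a covariate (0.115). Only without dcKO replicate 1, the shallow library, did the call remain among those 8 fits, at 0.0129. Hey1, a repressor that pairs with Hes proteins, had 19.7, 21.3, 21.3 and 22.2 TPM in dcKO libraries, against 21.1, 18.83, 18.6 and 18.9 TPM in ff libraries. These ranges overlapped, and the log2 fold change of 0.02 had a 95% interval of -0.12 to 0.16 (adjusted p = 0.811). An increase of the size seen for Hes1 lies outside that interval.

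Dtx4 encodes a Deltex-type ubiquitin ligase that acts on Notch receptors during their passage through the cell. It had 25.7, 26.9, 30.1 and 31.5 TPM in E18.5 dcKO libraries, against 62.9, 55.5, 61.7 and 54.6 TPM in ff libraries. The highest dcKO library was far below the lowest ff library. The log2 fold change in counts was -1.15 (SE 0.08, adjusted p = 1.25e-06), with a 95% interval of -1.32 to -0.99, and the gene stood at rank 19 of 17974 by p, ahead of Notch1 at rank 48 and Notch2 at rank 67. Its relative Dtx1 was lower by less, with a log2 fold change of -0.29 (SE 0.06, adjusted p = 0.00221). Of the other relatives, Dtx3l was higher at a low level, with means of 2 TPM in dcKO and 1.04 TPM in ff (log2 fold change 0.81, SE 0.19, adjusted p = 0.00592), and Dtx2 (-0.06) and Dtx3 (-0.02) were not called.

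**Figure D2:**
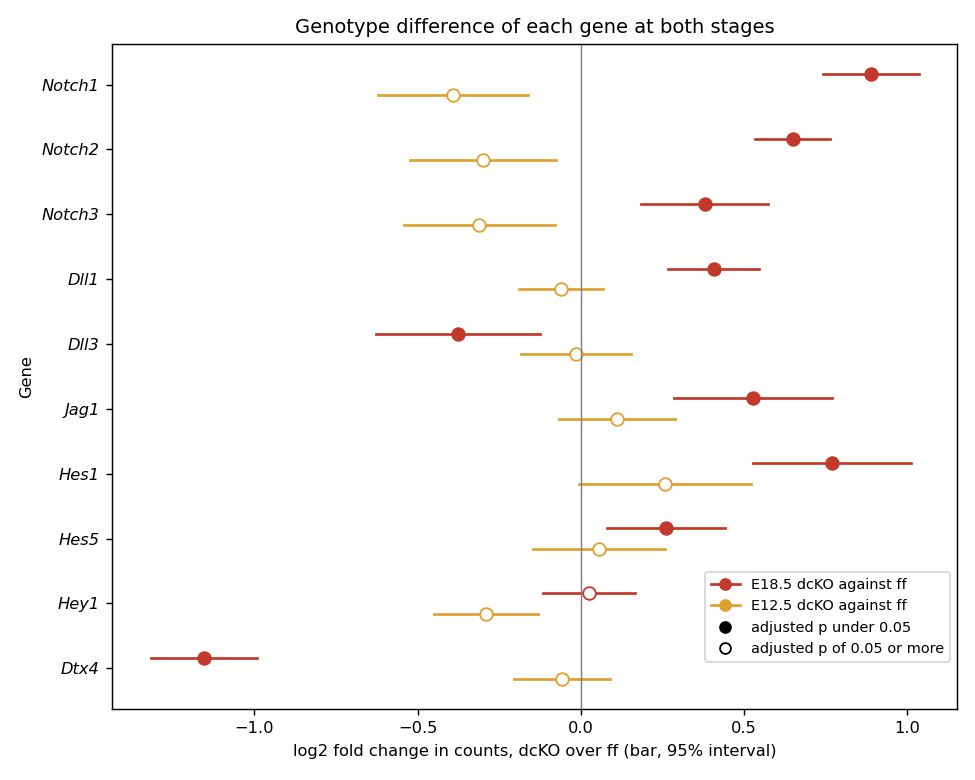
log2 fold change in counts, dcKO over ff, for each member at E18.5 and at E12.5, with its 95% interval from edgeR. At E18.5 Notch1 (0.89) and Hes1 (0.77) lie above 0 and Dtx4 (-1.15) far below it, while at E12.5 Notch1 (-0.39) and Hey1 (-0.29) lie below 0 and no member passed the adjusted threshold.

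At E18.5, 8 members had groups that did not overlap in TPM, where 30.7% of all genes tested did so, and 8 did not overlap in CPM, where 33.3% did so. TPM are relative to all other transcripts, and the median gene was 0.13 higher in dcKO in log2(TPM + 1) at E18.5, against 0.03 in scaled counts. In the authors' deposited table for E18.5, 9 of 10 members had an adjusted p under 0.05, 7 with a positive and 2 with a negative log2 fold change, where 32% of the genes with an adjusted p in the authors' deposited table did. The header of that table does not state the direction, and the sign was that of dcKO over ff in the present fits for all 10 members.

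The order of the levels differed between the genotypes at E18.5. Among libraries labelled dcKO, Hes5 was highest with a mean of 47.7 ± 4.58 TPM, above all libraries of the other members. Dtx4 (28.5 ± 2.68 TPM), Notch1 (26.1 ± 2.41 TPM), Hes1 (23.5 ± 4.499 TPM), Dll1 (23.0 ± 1.32 TPM) and Hey1 (21.2 ± 1.05 TPM) followed, each with a range that overlapped its neighbour's, and below them came Notch2 (15.4 ± 0.56 TPM), Notch3 (10.5 ± 1.00 TPM), Jag1 (9.17 ± 0.81 TPM) and Dll3 (5.86 ± 0.52 TPM), of which Notch3 and Jag1 overlapped. In ff, Dtx4 was highest with 58.7 ± 4.21 TPM, then Hes5 with 35.3 ± 1.68 TPM, and neither range reached that of another member. Hey1 (19.3 ± 1.16 TPM), Dll1 (16.9 ± 1.76 TPM), Notch1 (12.95 ± 1.56 TPM), Hes1 (11.9 ± 2.23 TPM), Notch2 (9.06 ± 0.73 TPM), Notch3 (7.03 ± 1.04 TPM), Dll3 (6.37 ± 1.02 TPM) and Jag1 (5.98 ± 1.22 TPM) came after them in ff (SD, n = 4 throughout). Of these neighbours, Hes1 and Notch2, and Notch2 and Notch3, had ranges that did not overlap, and the others did overlap.

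The makeup of each family was compared as shares of its summed TPM in a library. At E18.5 Notch1 made up 50.1 ± 1.73% of receptor TPM in dcKO and 44.5 ± 1.37% in ff. Among the ligands, Jag1 made up 24.1 ± 0.76% in dcKO and 20.3 ± 2.11% in ff, and Dll3 15.4 ± 1.24% in dcKO and 21.8 ± 2.24% in ff. Among the 3 target genes Hey1 made up 23.0 ± 2.11% in dcKO and 29.1 ± 2.47% in ff (SD, n = 4 each). These 4 shares had groups that did not overlap, with an exact two-sided permutation p of 0.0286, the smallest that 4 against 4 allows. Hes1 was at 25.3 ± 2.63% of target gene TPM in dcKO and 17.8 ± 2.74% in ff (exact permutation p = 0.0571, n = 4 each). At E12.5 the shares of Jag1 (10.9 ± 0.10% in dcKO and 9.37 ± 0.14% in ff), Hes1 (25.8 ± 2.10% in dcKO and 22.5 ± 0.84% in ff) and Hey1 (16.7 ± 0.47% in dcKO and 20.4 ± 0.96% in ff) had groups apart, each at the smallest exact permutation p that 3 against 3 allows, 0.1 (SD, n = 3 each). Over the 18 shares tested at both stages the lowest adjusted p was 0.129 by Benjamini-Hochberg adjustment. Even at the smallest exact p that these group sizes allow, no share could have passed that adjustment. It therefore cannot decide whether any share differed. At E18.5 the summed TPM was 52.1 ± 3.47 in dcKO and 29.0 ± 3.01 in ff for the receptors, 38.0 ± 2.30 in dcKO and 29.2 ± 3.59 in ff for the ligands, and 92.4 ± 9.20 in dcKO and 66.5 ± 2.21 in ff for the target genes (SD, n = 4 each). At E12.5 it was 73.7 ± 10.9 in dcKO and 93.1 ± 8.78 in ff for the receptors, 95.6 ± 1.68 in dcKO and 98.8 ± 2.86 in ff for the ligands, and 217 ± 11.6 in dcKO and 221 ± 8.51 in ff for the target genes (SD, n = 3 each).

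**Figure D3:**
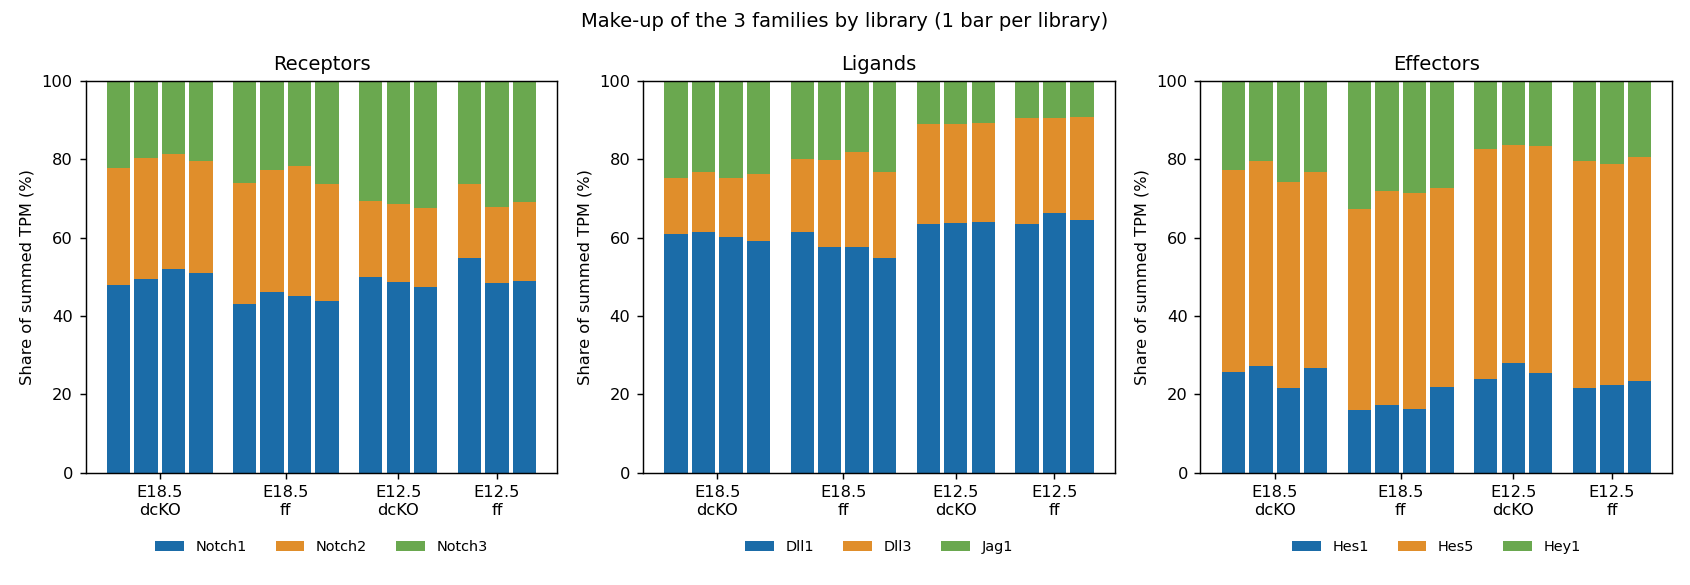
Share of each member in the summed TPM of its family, in percent, with 1 bar for every library and dcKO left of ff within each stage; the panel of effectors holds the target genes. At E18.5 Notch1 takes 50.1% of receptor TPM in dcKO and 44.5% in ff, and Hey1 takes 23.0% of target gene TPM in dcKO and 29.1% in ff.

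In bulk tissue, a change in the number of cells of a type and a change of RNA per cell cannot be told apart. Among 12 radial glia markers at E18.5, 6 were higher and 2 lower in dcKO, with a summed 2514 to 2793 TPM in dcKO and 2338 to 2455 TPM in ff. The neural stem cell factors Nr2e1, Pax6, Sox9 and Sox2 rose with log2 fold changes of 1.03, 0.95, 0.86 and 0.72, and Hopx and Tnc, genes of outer radial glia in human cortex, fell by 0.30 and 0.35. Of 10 neuron markers 9 were lower, with a summed 4161 to 4714 TPM in dcKO and 6205 to 6398 TPM in ff. Of 8 endothelial markers 1 was higher (183.7 to 248 TPM in dcKO and 136 to 221 TPM in ff), and of 8 mural cell markers none passed (189 to 245 TPM in dcKO and 146 to 219 TPM in ff). All 8 ventral telencephalon markers were higher (520 to 727 TPM in dcKO and 274 to 337 TPM in ff), as were 4 of 7 microglia markers (132 to 158 TPM in dcKO and 86.3 to 109.6 TPM in ff) and 4 of 7 diencephalon markers (45.5 to 56.6 TPM in dcKO and 25.0 to 30.4 TPM in ff). Of the dorsal telencephalon markers 2 of 8 were higher and 4 lower, of the astrocyte markers 2 of 6 higher, of the oligodendrocyte lineage markers 1 of 5 higher and 3 lower, and of the meningeal markers 1 of 7 higher, with no call among 7 choroid plexus and 6 tested erythroid markers. Erythroid transcripts summed to 595 to 2759 TPM in dcKO and 3648 to 6194 TPM in ff. No gene of these lists was at 0 in all libraries of a group. The part of these cell types in the differences of the Notch genes was not tested.

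The proneural genes, which Hes1 and Hes5 are known to repress, were split at E18.5. Of 6 tested, 3 were higher and 2 lower. Neurog2 was among those that were higher, with a log2 fold change of 0.47. Neurod1 and Neurod4, which act later in the same cascade, were lower by 0.87 and 0.90 on the log2 scale. Neurod1 averaged 19.2 TPM in dcKO and 32.6 TPM in ff. Neurod4 was near the floor, with means of 0.78 TPM in dcKO and 1.19 TPM in ff. Neurog1, among those that were higher, was near it too, with 0.82 TPM in dcKO and 0.14 TPM in ff.

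Outside the 10 members, 49 further genes of the pathway were examined, and 48 of them could be tested at E18.5. Of these 13 were higher and 7 lower in dcKO, with a median log2 fold change of 0.07. Among all genes 32.2% were called, 15.6% higher and 16.6% lower. The counts by role that follow stand beside these same shares, and no role was tested as a set. Lfng, a glycosyltransferase that modifies Notch and is itself expressed in radial glia, had 47.4, 36.5, 35.4 and 40.9 TPM in dcKO libraries, against 24.8, 21.2, 21.2 and 24.1 TPM in ff libraries. All dcKO libraries were higher, with a log2 fold change of 0.69 (SE 0.09, adjusted p = 0.000154), and Lfng was the only 1 of 5 glycosylation genes called. Of 10 genes of the nuclear complex 6 were higher and none lower. Among them were the coactivator genes Maml3 (log2 fold change 0.46, SE 0.07, adjusted p = 0.000321) and Maml1 and the acetyltransferase gene Crebbp (0.26, SE 0.05, adjusted p = 0.00224). Rbpj itself was not called (log2 fold change 0.06, SE 0.05, adjusted p = 0.468).

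Of 9 genes of receptor cleavage 1 was higher and 3 lower at E18.5. Adam17, a protease that can cut Notch outside the membrane, was higher (log2 fold change 0.31, SE 0.06, adjusted p = 0.00246), and Aph1b, a gamma-secretase subunit, was lower (-0.40, SE 0.05, adjusted p = 6.89e-05), as were the subunit gene Psenen and the protease gene Adam10. Of 13 genes of ubiquitination and trafficking 4 were higher and 4 lower. Fbxw7, which marks the cut Notch protein for destruction, was lower (-0.46, SE 0.05, adjusted p = 5.63e-05), and so was Neurl1b, a ubiquitin ligase of the ligands (-0.39, SE 0.07, adjusted p = 0.00123). Among 5 other ligands and decoys only Dlk1 was called, with a log2 fold change of 0.43. Notch4 was not called (0.22). Of 6 further target genes 5 could be tested and none was called, with log2 fold changes of 0.14 for Nrarp, -0.17 for Hes6, 0.24 for Hey2 and -0.18 for Heyl.

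**Figure D4:**
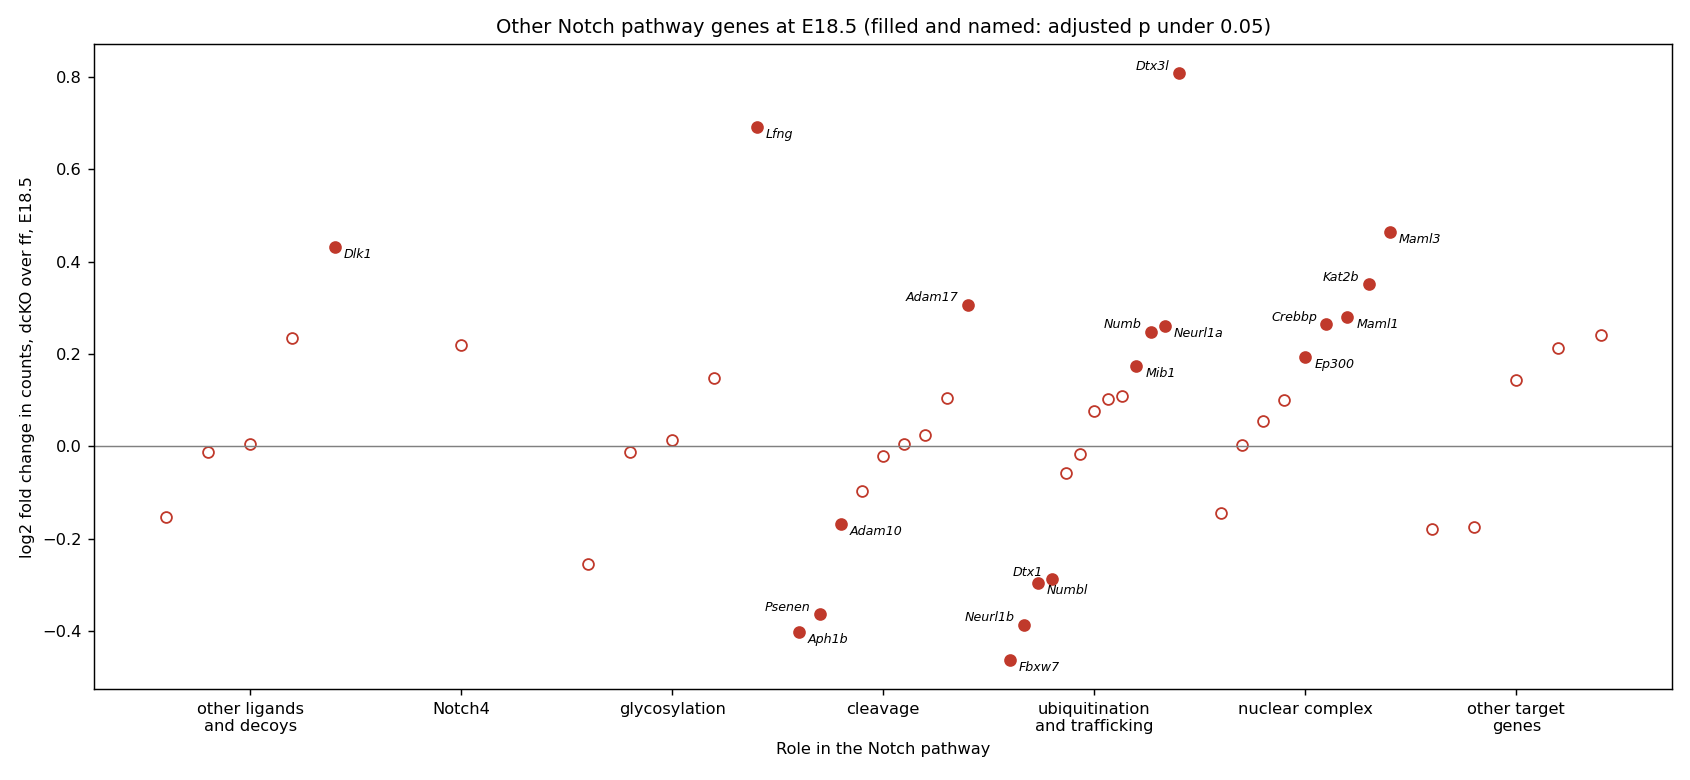
log2 fold change in counts, dcKO over ff at E18.5, for tested pathway genes outside the 10 members, grouped by role, with 1 gene not shown. Filled, named points passed an adjusted p of 0.05. Lfng (0.69) and Dtx3l (0.81) are the highest, the filled nuclear complex genes all lie above 0, and Fbxw7 (-0.46) is the lowest.

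At E12.5 none of the 10 members was called by edgeR, where 0.19% of all 17853 genes were. At an unadjusted p under 0.05 there were 4 members, Notch1, Notch2, Notch3 and Hey1, against 19.2% of all genes. The DESeq2 Wald test called 3, Notch1, Notch3 and Hey1, where it called 6.74% of all genes, and limma-voom called none, where it called 1.15%. The median log2 fold change was -0.06 over the members and 0.01 over all genes. Of the 47 pathway genes outside the members that could be tested at E12.5, none was called. Among the cell type lists only dorsal telencephalon markers were called at this stage, 4 of 8 and all lower, with a summed 685 to 753 TPM in dcKO and 904 to 1066 TPM in ff, and their part in the values of the Notch genes was not tested.

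Notch1 had 43.1, 33.2 and 31.7 TPM in E12.5 dcKO libraries, against 47.1, 49.8 and 44.3 TPM in ff libraries. The groups did not overlap, though dcKO replicate 1 lay near the ff range, and the log2 fold change in counts was -0.39 (SE 0.10, adjusted p = 0.101). Without that library it was -0.51 with an adjusted p of 0.0149, where 3.12% of all genes were called. The dcKO libraries left in that fit, replicates 2 and 3, had the lowest chi-square per degree of freedom of all replicate pairs. Their deviations from the stage mean also fell with transcript length over all genes, with Spearman correlations of -0.40 and -0.46. The part of either in the lower adjusted p was not tested. In the other fits that left out 1 library the adjusted p of Notch1 ran from 0.139 to 0.463. Hey1 had 35.5, 36.0 and 37.6 TPM in dcKO libraries, against 43.4, 47.6 and 44.3 TPM in ff libraries. This gap was wide relative to the spread, with a log2 fold change of -0.29 (SE 0.07, adjusted p = 0.0893). In TPM 4 members had groups apart at this stage, Notch1, Dll3 and Hey1 lower and Jag1 higher, where 23.3% of all genes did so, 13.3% lower and 10.1% higher. In CPM 3 did, Notch1, Dll1 and Hey1, all lower, where 26.8% of all genes did so and 13.2% were lower. The authors' deposited table for E12.5 called 2 members, Notch1 with a log2 fold change of -0.34 (adjusted p = 0.00632) and Hey1 with -0.25 (adjusted p = 0.0115), where 10.2% of the genes with an adjusted p were called.

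For the other 8 members the 95% intervals bound the differences at E12.5. Notch2 was at 16.8, 13.6 and 13.3 TPM in dcKO libraries, against 16.2, 19.95 and 18.3 TPM in ff libraries, and Notch3 at 26.4, 21.5 and 21.7 TPM in dcKO libraries, against 22.7, 33.2 and 27.9 TPM in ff libraries. For both genes the groups overlapped only through dcKO replicate 1 and the shallow ff replicate 1. The log2 fold change was -0.30 for Notch2 (interval -0.52 to -0.08, adjusted p = 0.157). It was -0.31 for Notch3 (interval -0.54 to -0.08, adjusted p = 0.156, and 0.0497 by the DESeq2 Wald test). Hes1 was at 49.2, 61.5 and 58.0 TPM in dcKO libraries, against 46.0, 50.2 and 53.4 TPM in ff libraries, with a log2 fold change of 0.26 (interval -0.01 to 0.52). Hes5, at 120.5 to 132.5 TPM in dcKO and 122 to 131 TPM in ff, was the most abundant member at this stage in both genotypes. The intervals of Hes5 (-0.15 to 0.26), Dll1 (-0.19 to 0.07), Dll3 (-0.18 to 0.15), Jag1 (-0.07 to 0.29) and Dtx4 (-0.20 to 0.09) all held 0.

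Transcript length moved with the E12.5 differences. Over 17448 genes the log2 fold change, dcKO over ff, had a Spearman correlation of -0.41 with the length of the longest transcript, a correlation across genes that share these 6 libraries, and at E18.5 that value was 0.03. The median log2 fold change was 0.16 among the 4362 shortest genes and -0.14 among the 4359 longest. Deviations of single E12.5 libraries from the stage mean had correlations with length of -0.40 and -0.46 in dcKO replicates 2 and 3. They were 0.47 in ff replicate 2, 0.02 in dcKO replicate 1, 0.16 in ff replicate 1 and 0.07 in ff replicate 3. Single E18.5 libraries also varied with length, from -0.25 in ff replicate 3 to 0.25 in dcKO replicate 3. Both signs occurred within each E18.5 group, with 0.21 in ff replicate 2 and -0.17 in dcKO replicate 2. The receptor transcripts are the longest of the members, with 9488 bases for Notch1, 10500 for Notch2 and 8016 for Notch3, against 1468 for Hes1, 1273 for Hes5 and 2423 for Hey1. With a correction for length and GC content the difference was -0.21 for Notch1 (adjusted p = 0.289), -0.07 for Notch2 and -0.15 for Notch3, while Hey1 moved to -0.36 and passed the threshold (adjusted p = 0.0299).

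**Figure D5:**
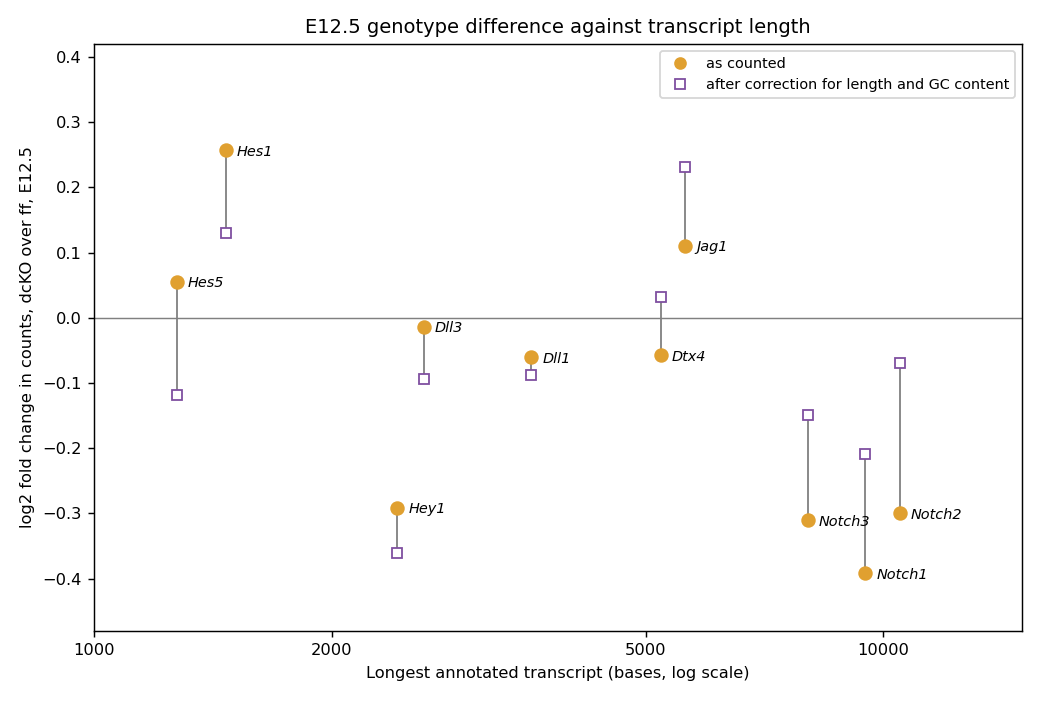
log2 fold change in counts at E12.5, dcKO over ff, against the length of each member's longest annotated transcript in bases on a log axis, as counted (circles) and after correction for length and GC content (squares). The long receptor genes move toward 0 with the correction, Notch1 to -0.21, and Hey1 moves away from it, to -0.36.

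The dcKO minus ff difference differed between the stages for 5 members, by the genotype by stage term of 1 edgeR fit of all 14 libraries. Of all 19327 genes 16.5% were called, 7.12% with a positive and 9.41% with a negative difference, taken as E18.5 minus E12.5. Notch1 had the largest such difference, 1.23 on the log2 scale (SE 0.13, adjusted p = 7.19e-05). It was 0.91 for Notch2 (SE 0.11, adjusted p = 0.000185), 0.65 for Notch3 (SE 0.15, adjusted p = 0.00981) and 0.42 for Dll1 (SE 0.08, adjusted p = 0.0027). For Dtx4 it was -1.14 (SE 0.12, adjusted p = 5.42e-05). Hes1 at 0.47 (adjusted p = 0.0577), Hey1 at 0.28 (0.0573), Dll3 at -0.40 (0.0577), Jag1 at 0.37 (0.0966) and Hes5 at 0.17 (0.408) did not pass. The result for Hes1 and Hey1 depended on the setting, as Hes1 passed under 9 and Hey1 under 8 of 23 alternatives. With the length and GC correction 7 members passed, these 2 added, where 17.9% of all genes did, and no member's interaction changed sign under any alternative.

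The stages themselves were compared within each genotype in that fit, and stage also means a different dissection, cortex at E18.5 and telencephalon at E12.5. These comparisons share their libraries with those above. In dcKO 9 of 10 members were called and all 9 were lower at E18.5, where 62.2% of all genes were called, 30.9% higher and 31.3% lower. In ff all 10 were called, 9 lower and Dtx4 higher, where 61.4% of all genes were called, 31.5% higher and 29.9% lower. The median log2 fold change, E18.5 over E12.5, was -1.21 in dcKO and -1.87 in ff.

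The log2 fold change of Notch1, E18.5 over E12.5, was -0.67 in dcKO and -1.90 in ff. Notch2 was not called in dcKO, at -0.13 with a 95% interval of -0.30 to 0.04 (adjusted p = 0.163), and was at -1.04 in ff (adjusted p = 8.66e-09). With the correction for length and GC content it was called in dcKO, at -0.57 with an adjusted p of 6.56e-08. Notch2 had 14.8 to 16.03 TPM in E18.5 dcKO libraries and 13.3 to 16.8 TPM in E12.5 dcKO libraries. Dtx4 differed in direction between the genotypes, with a log2 fold change of -0.77 in dcKO (SE 0.08, adjusted p = 5.25e-07) and 0.37 in ff (SE 0.08, adjusted p = 0.00108). It had 25.7 to 31.5 TPM at E18.5 and 41.3 to 43.3 TPM at E12.5 in dcKO, and 54.6 to 62.9 TPM at E18.5 and 41.0 to 48.4 TPM at E12.5 in ff. The target genes were lower at E18.5 in both genotypes, with log2 fold changes of -1.57 in dcKO and -2.04 in ff for Hes1, -1.66 in dcKO and -1.83 in ff for Hes5, and -1.02 in dcKO and -1.30 in ff for Hey1. The ligands were lower too, with -1.60 in dcKO and -2.03 in ff for Dll1, -2.40 in dcKO and -2.01 in ff for Dll3, and -0.39 in dcKO and -0.76 in ff for Jag1. Notch3 was at -1.39 in dcKO and -2.04 in ff.

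Genes with the most similar pattern were ranked by Pearson's r of log2 CPM over the 14 libraries, among 13653 genes with a mean of at least 1 CPM. The libraries share stage and genotype, so r describes mainly the 4 group levels. Closest to Notch1 were Gli3 (r = 0.990), a transcription factor of the hedgehog pathway, Gabpb2 (0.989), Megf10 (0.988) and Dusp16 (0.987). Gli3 averaged 11.7 TPM in dcKO and 4.598 TPM in ff at E18.5, and 23.5 TPM in dcKO and 32.4 TPM in ff at E12.5. Closest to Hes5 were Siva1 (r = 0.997), Vamp3 (0.996), Cdca4 (0.996) and Birc5 (0.995), the last a mitotic survivin gene. Closest to Dtx4 were the tubulin gene Tubb5 (r = 0.975), Ccdc71 (0.970), Fam32a (0.958) and Mycl (0.957), with lower r than for the other query genes.

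Exons of 5 members overlap those of another gene in GENCODE M21, which makes their counts uncertain where reads could be assigned to either. These are Notch1 with 0610009E02Rik and Gm13568, Notch3 with Gm17276, Dll1 with A930024N18Rik and Hes5 with Gm20421, on the opposite strand, and Notch2 with Gm42820 on the same strand. The library kit keeps strand, and the strand setting used for counting is not given in the sources used here.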

How the data were processed

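Polyadenylated RNA of 14 libraries was sequenced after TruSeq Stranded mRNA preparation, per the labels' protocols, and the submitters' processing notes name Trim Galore, STAR, RSEM and DESeq2 without versions. Genome build, annotation and counting strand are not given in the sources used here. Per gene and library, the authors deposited expected count values and TPM from RSEM. The authors' deposited tables of their own comparisons hold a log2 fold change, a p-value and an adjusted p per gene. Columns were assigned to groups by the genotype word in their names and the stage of the table, with columns named dfl read as ff. Library names in most sample descriptions go with another group than the sample's title, so no column was tied to a single sample.

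Expected counts (3.3% to 6.11% of values fractional) were rounded. Tests ran under R 4.3.3, using edgeR 4.0.16 (filterByExpr, TMM, robust quasi-likelihood F test, Benjamini-Hochberg at 0.05 over all genes tested, two-sided), each stage in its own fit, and with limma 3.58.1 and DESeq2 1.42.0 as alternatives. SE is the absolute log2 fold change divided by the square root of F, and CPM are TMM-scaled. Interaction and stage differences came from 1 fit of 14 libraries. The TPM alternative used log2(TPM + 1) and genes with a mean of at least 1 TPM. Length and GC content are those of the longest GENCODE M21 transcript, matched by gene ID without version, and were corrected by splines with 5 degrees of freedom. Other alternatives were scaling, filters, sex as a covariate and each library left out. The steps were tested on simulated data. In 18 pairs of replicates none had identical values, so all were counted separately. The lowest chi-square per degree of freedom was 4.00, between E12.5 dcKO replicates 2 and 3. The next lowest was 16.6, between E18.5 ff replicates 1 and 4. Values that are not identical do not show that libraries came from separate embryos.

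The members and gene lists were chosen with earlier results of these data known. The text names all 10 members, the pathway genes called with the 4 lowest p in each direction, and for Notch1, Hes5 and Dtx4 the 4 genes most alike in pattern. Other pathway, proneural and radial glia genes given with values were named after their values were seen. Some genes of these lists are not reported here by name and are not drawn.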

Additional observations from a re-analysis of the deposited data

Results flagged for a closer look

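In E18.5 ff replicate 1 Hey1 was at 21.07 TPM, apart from the other 3 ff libraries at 18.61 to 18.85 TPM. Its gap to the nearest library took 0.902 of the group's range, above Dixon's 95% critical value. It was the only 1 of 20 groups of 4 libraries tested in this way, and chance alone gives about 1 in 20. That library lies inside the dcKO range of 19.7 to 22.2 TPM, and without it the log2 fold change of Hey1 in counts was 0.03 (edgeR adjusted p = 0.788).

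The difference between dcKO and ff differed between E18.5 and E12.5 for 5 members in the interaction test. On the log2 scale, E18.5 minus E12.5, the values were 1.23 for Notch1, 0.91 for Notch2, 0.65 for Notch3, 0.42 for Dll1 and -1.14 for Dtx4. Log2 fold changes at E12.5 fell with transcript length over all genes (Spearman correlation -0.41), and with the correction for length and GC content all 5 still passed. For Notch1 the difference at E18.5 (0.89) and at E12.5 (-0.39) had opposite signs, of which the second did not pass the edgeR test. Dtx4 was at -0.06 at E12.5.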

How the results depend on the processing

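At E18.5 between 7 and 9 members were called under all alternatives, where 16.7% to 37.1% of all genes were called. Leaving out 1 library gave 7 to 9, where 24.2% to 31.3% of all genes were called. Dll3 and Hes5 were the only members whose calls were lost. At E12.5, where edgeR called 0, the DESeq2 Wald test called 3, where it called 6.74% of all genes. With 1 fit of all 14 libraries 2 were called (Notch1 and Hey1), where 5.58% of all genes were. The length and GC correction gave 1 (Hey1), where 1% of all genes were called. Leaving out 1 library gave 0 to 1, where 0% to 3.12% of all genes were called. Interaction calls were 5, where 16.5% of all genes were called. In limma on log2(TPM + 1) they were 8, which added Hes1, Hes5 and Hey1 and where 16% of all genes were called. The other fits of all 14 libraries gave 5 to 7, where 7.06% to 22.3% of all genes were called. With 1 library left out there were 5 to 6, where 8.37% to 17.2% of all genes were called. Stage calls with 1 library left out ran from 10 to 10 in ff, where 53.2% to 63.8% of all genes were called. In dcKO they ran from 9 to 9, where 52.6% to 63.8% of all genes were called. Stage calls in dcKO were 10 after the length and GC correction, which added Notch2 (-0.57) and where 63.7% of all genes were called. On the TPM scale they were 8, which lost Jag1 (-0.18, adjusted p = 0.221) and where 61.8% of all genes were called. The TPM scale moved the median of all genes by 0.167 for the interaction and for the stage difference in dcKO.

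Signs changed only for small differences. Hey1 at E18.5 was -0.014 in 1 fit of all libraries, -0.019 with sex as a covariate, and from -0.014 to 0.047 with 1 library left out (-0.014, -0.00026 and -0.0085 without ff replicates 2, 3 and 4, and -0.011 without dcKO replicate 4). Hes5 at E12.5 was -0.017 on the TPM scale, -0.12 after the length and GC correction and from -0.019 (without ff replicate 2) to 0.13 with 1 library left out. Dtx4 at E12.5 was 0.032 after that correction. Dll3 at E12.5 ran from -0.048 to 0.013 with 1 library left out, with 0.0013 without the shallow ff replicate 1 and 0.013 without dcKO replicate 1. Notch2 between stages in dcKO was 0.083 on the TPM scale. The cause of these changes was not tested.

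The calls over all genes at E12.5 were 34 with edgeR, 56 with DESeq2 size factors, 1203 with the DESeq2 Wald test, 205 with limma-voom, 244 without a filter, 9 at a mean of 1 CPM, 1079 in 1 fit of all libraries, 2 with sex as a covariate, 3 on the TPM scale, 175 after the length correction and 71 without the shallow library. No paired analysis was possible because the columns carry no replicate number shared across genotypes. The dcKO libraries were all male, so sex is tied to genotype in part.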
